A study of Mus musculus with 15 samples.

Results

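A set of 10 sarcomere genes was followed across mRNA-seq of mouse quadriceps. They encode the myomesins of the M-band (*Myom1*, *Myom2*, *Myom3*), the myozenins of the Z-disc (*Myoz1*, *Myoz2*, *Myoz3*), the sarcomeric α-actinins (*Actn2*, *Actn3*) and the skeletal myosin-binding proteins C (*Mybpc1*, *Mybpc2*). Members were found by gene symbol, and all 10 were present among the 12529 genes of the expression table. All 10 also passed the filter on low values and were among the 11674 genes tested. The 15 libraries came from 3 groups of 5, all labelled C57BL/6 (the study's methods name C57BL/6J for purchased mice). Ex mice were wild type and had weeks of free access to running wheels, mTg mice were sedentary and positive for a PGC1α transgene driven by the muscle creatine kinase promoter, and Control mice were wild type and sedentary. Per the study's methods the mice were male, the wheel-running experiment used young adults, no age is stated for the transgenic line, and exercised animals were taken hours after a last bout of running. The origin of the Control mice, either littermates of mTg or purchased animals, is not given in the sources used.

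The sarcomere is bounded by Z-discs, where α-actinin crosslinks the barbed ends of actin filaments, and it is centered on the M-band, where myomesins bridge neighboring myosin filaments. Myozenins, also named calsarcins, bind α-actinin and tether calcineurin at the Z-disc, while myosin-binding protein C sits on the thick filament and tunes the approach of myosin heads to actin. Each family has members of different fiber type. *Actn3*, *Myoz1*, *Myoz3*, *Mybpc2* and *Myom2* are known from fast fibers, *Myoz2* from slow fibers, *Actn2* from all fibers, and *Myom3* from slow and oxidative fast fibers. *Mybpc1* encodes the form named slow skeletal, a name that need not limit it to slow fibers.

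Levels are given as FPKM, read numbers scaled for transcript length and library size. The annotation that set the lengths is not given in the sources used, and comparisons of levels between genes depend on it. Between 11475817 and 15381111 reads fell on the listed genes in mTg, against 14098168 to 16876751 in Ex and 15686582 to 16917490 in Control libraries. The fewest reads behind any value of the 10 genes were 272, for *Myoz2* in mTg replicate 2. The library mTg replicate 1 stood apart, with the highest value of its group for 8 of the 10 genes, the most reads of the group (15381111) and a summed FPKM of 490791, against 438542 to 473317 in the other mTg libraries. Results on the 10 genes whose call changed without it are given with both values. *Ppargc1a*, the gene of the transgene, measured 53.8 ± 2.84 FPKM in mTg and 7.50 ± 3.04 FPKM in Control libraries (SD, n = 5 each; log2 fold change 2.75 ± 0.17, adjusted p = 5.59e-08), while its 6.31 ± 0.938 FPKM in Ex gave an adjusted p of 0.621 against Control. Its value sums transgene and endogenous transcripts. Fold changes below are on the log2(FPKM + 1) scale with their standard errors, and adjusted p-values are those of limma after Benjamini-Hochberg correction over all 11674 genes. A gene was called changed at an adjusted p under 0.05.

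To ask how wheel running remodels these structures, Ex was compared with Control. In all, 4 members rose (*Myom3*, *Myoz2*, *Actn2* and *Mybpc1*), 3 fell (*Mybpc2*, *Actn3* and *Myoz1*) and 3 did not pass the test (*Myom1*, *Myom2* and *Myoz3*). Of all tested genes, 5.39% were called higher and 5.02% lower in this comparison. In mTg against Control, 3 members rose (*Myom3*, *Actn2* and *Mybpc1*), 5 fell (*Myoz3*, *Actn3*, *Myoz2*, *Myoz1* and *Mybpc2*) and 2 did not pass, where 22.3% of all tested genes were called higher and 23.1% lower. In Ex against mTg, 5 members were higher (*Myoz2*, *Myom3*, *Myoz3*, *Actn3* and *Mybpc1*) and 5 did not pass, beside 20.7% of all tested genes in each direction. By limma 0 members were lower, as at an unadjusted p under 0.05 and with limma voom on recovered reads. Scaling every library to an equal sum moved the balance over all genes, with 1225 higher and 208 lower in Ex against Control in place of 629 and 586, and 3038 higher and 1898 lower in Ex against mTg in place of 2414 and 2413. The median log2 fold change of the 10 genes was -0.06 in Ex over Control, -0.26 in mTg over Control and 0.33 in Ex over mTg, beside medians of -0.0056, -0.0211 and 0.0155 over all tested genes. Both comparisons with Control share the same 5 Control libraries.

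**Figure D1:**
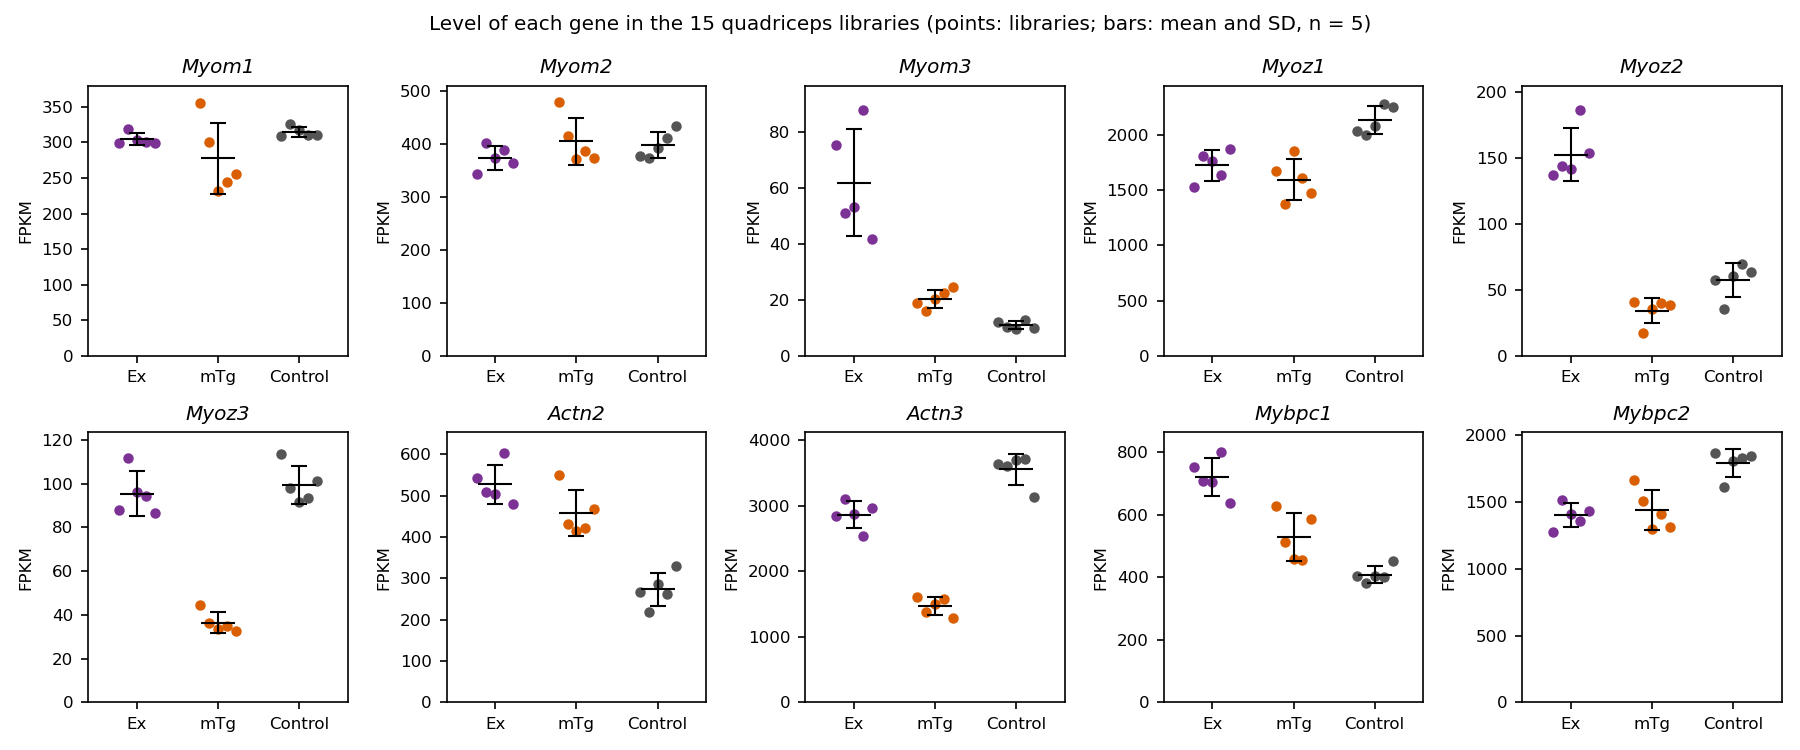
Level of each of the 10 genes in FPKM (linear axes from 0) in Ex, mTg and Control libraries. Points are single libraries in replicate order and bars are the mean and SD (n = 5). *Myom3* and *Myoz2* stand highest in Ex, while *Actn3* and *Myoz3* stand lowest in mTg, where their highest libraries reach 1610 and 44.7 FPKM.

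The 4 members that rose in Ex are shown with the 250 bases before their RefSeq transcription start, since these windows hold the core promoter. The sequences are from RefSeq (GRCm38.p6, the assembly of mm10), where 6 of the 10 members had an entry, and are written 5′ to 3′ on the strand of the gene. *Myom3* is at chr4:135759465-135759714 (plus strand), *Myoz2* at chr3:123034988-123035237 (minus strand), *Actn2* at chr13:12340733-12340982 (minus strand) and *Mybpc1* at chr10:88605153-88605402 (minus strand). Capitals mark a match to the binding motif of MEF2, a family of muscle transcription factors.
Myom3: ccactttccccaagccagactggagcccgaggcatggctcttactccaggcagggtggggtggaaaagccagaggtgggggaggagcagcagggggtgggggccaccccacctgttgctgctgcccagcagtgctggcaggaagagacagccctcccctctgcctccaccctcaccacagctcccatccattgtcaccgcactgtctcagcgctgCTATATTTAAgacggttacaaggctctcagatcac
Myoz2: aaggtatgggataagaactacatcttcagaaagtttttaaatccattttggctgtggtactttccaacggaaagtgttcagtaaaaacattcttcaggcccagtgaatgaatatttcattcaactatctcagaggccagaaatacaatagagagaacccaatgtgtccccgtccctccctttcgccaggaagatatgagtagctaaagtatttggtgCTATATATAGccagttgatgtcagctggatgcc
Actn2: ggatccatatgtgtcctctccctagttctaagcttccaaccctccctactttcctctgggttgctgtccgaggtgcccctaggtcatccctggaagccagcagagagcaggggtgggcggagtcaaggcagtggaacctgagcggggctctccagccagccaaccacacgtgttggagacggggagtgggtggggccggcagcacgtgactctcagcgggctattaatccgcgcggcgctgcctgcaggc
Mybpc1: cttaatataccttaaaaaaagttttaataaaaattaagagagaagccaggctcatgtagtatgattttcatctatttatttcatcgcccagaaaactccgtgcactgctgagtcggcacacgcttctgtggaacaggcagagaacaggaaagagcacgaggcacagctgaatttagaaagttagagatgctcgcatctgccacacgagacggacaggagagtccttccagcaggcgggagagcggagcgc
*Myom3* held the MEF2 match CTATATTTAA beginning 35 bases before its RefSeq start, and *Myoz2* held CTATATATAG beginning 33 bases before its RefSeq start. The other 4 windows (*Actn2*, *Mybpc1*, *Mybpc2* and *Myom1*) held no MEF2 match, and 2.92% of 32851 RefSeq promoter windows of the same length hold one on either strand. The *Myom1* window (chr17:71019307-71019556, plus strand) lies inside the gene as located below, which begins at chr17:71002633. Its matches therefore do not describe the bases before that start. The *Myoz2* and *Actn2* windows end inside their genes as located below, which begin at chr3:123035015 and chr13:12340760 on the minus strand. Measured against that location, the *Myoz2* match spans the start of the gene. The sequence AAGGTCA, bound by estrogen-related receptors, was in none of the 6 windows and is in 4.08% of all windows. The E-box CANNTG, bound by myogenic factors, occurred in all 6 and occurs in 66.2% of all windows, with 3 matches in *Actn2*, 3 in *Myom1*, 2 in *Mybpc1*, 2 in *Myoz2* and 1 each in *Myom3* and *Mybpc2*. A CArG box, the motif of serum response factor, was found in *Myom1* (1.47% of all windows) and the MCAT motif CATTCC in *Mybpc2* (12.6% of all windows). Both strands were searched, no MEF2 match overlapped an E-box, and a match is a string of letters with no measure of binding. Near a start site, the search could not tell a MEF2 site from another A/T-rich element of a core promoter, such as a TATA box.

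Among the M-band genes, *Myom3* rose most. *Myom3* lies at chr4:135759715-135815564 (mm10, plus strand, 37 exons) and measured 75.5, 51.0, 53.1, 88.0 and 41.8 FPKM in Ex replicates 1 to 5, against 12.2, 10.4, 9.75, 12.9 and 9.97 FPKM in Control. Every Ex library was above every Control library, with a mean of 61.9 ± 19.2 FPKM in Ex and 11.0 ± 1.43 FPKM in Control (SD, n = 5 each). The log2 fold change was 2.34 ± 0.17 (adjusted p = 2.01e-05), which ranked 3 from the highest of the 11674 tested genes. In mTg *Myom3* measured 18.7, 16.2, 20.5, 22.4 and 24.7 FPKM, above all Control libraries and below all Ex libraries. Its log2 fold change was 0.83 ± 0.11 in mTg over Control (adjusted p = 4.31e-05) and 1.51 ± 0.17 in Ex over mTg (adjusted p = 1.1e-05). The Ex libraries were also the most spread for this gene, with a coefficient of variation of 31.0% in Ex, 15.9% in mTg and 12.9% in Control. Quadriceps was sampled as whole tissue, so a change in the share of fibers that express a gene and a change in its RNA per fiber cannot be told apart here or in the results that follow.

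The 2 abundant myomesins did not pass the test in any of the 3 comparisons. *Myom1*, the myomesin of all striated muscle, lies at chr17:71002633-71126856 (plus strand, 38 exons) and measured 299, 319, 304, 301 and 299 FPKM in Ex, 355, 301, 232, 245 and 255 FPKM in mTg, and 310, 326, 318, 311 and 311 FPKM in Control. *Myom1* had a log2 fold change in Ex over Control of -0.05 ± 0.04 (adjusted p = 0.462), and its 95% interval ran from -0.135 to 0.036. In mTg over Control it was -0.20 ± 0.10 (adjusted p = 0.124, 95% interval -0.42 to 0.02), but -0.29 (adjusted p = 0.00689) without mTg replicate 1, the highest *Myom1* library of all. In Ex over mTg it was 0.15 ± 0.10 (adjusted p = 0.253), and 0.24 (adjusted p = 0.0212) without the same library. *Myom1* overlaps *Myl12a* on the other strand, and whether counting used strand is not given in the sources used. *Myom2*, which encodes M-protein, lies at chr8:15057653-15133541 (plus strand, 37 exons) and measured 343, 403, 374, 388 and 365 FPKM in Ex, 479, 415, 372, 388 and 373 FPKM in mTg, and 379, 374, 393, 411 and 435 FPKM in Control. The 3 groups overlapped. The log2 fold change of *Myom2* was -0.09 ± 0.06 in Ex over Control (adjusted p = 0.362, 95% interval -0.21 to 0.04), 0.02 ± 0.08 in mTg over Control (adjusted p = 0.849, 95% interval -0.15 to 0.19) and -0.11 ± 0.08 in Ex over mTg (adjusted p = 0.295).

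Of the 3 myozenins *Myoz2* rose and *Myoz1* fell in Ex, and all 3 fell in mTg. *Myoz2*, the myozenin of slow muscle and heart, lies at chr3:123006206-123035015 (minus strand, 6 exons) and measured 137, 144, 141, 186 and 154 FPKM in Ex, against 57.5, 35.3, 61.0, 69.4 and 63.6 FPKM in Control. All Ex libraries were above all Control libraries, with a log2 fold change of 1.42 ± 0.15 (adjusted p = 2.63e-04, rank 15 from the highest). In mTg *Myoz2* measured 40.6, 17.3, 35.6, 39.9 and 38.4 FPKM. All 5 lay below 4 of the Control libraries, but 4 of them lay above Control replicate 2, so that the groups overlapped, and the log2 fold change in mTg over Control was -0.75 ± 0.23 (adjusted p = 0.0156). Leaving out each library in turn gave -0.91 to -0.53 with adjusted p between 0.00346 and 0.0399. *Myoz2* thus rose in Ex and fell in mTg, and tested directly it was higher in Ex than in mTg by 2.17 ± 0.19 on the log2 scale (adjusted p = 7.38e-07, rank 12 from the highest).

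*Myoz3*, a myozenin of fast fibers, lies at chr18:60573750-60591788 (minus strand, 7 exons). It measured 44.7, 36.5, 33.7, 35.1 and 32.5 FPKM in mTg, against 113, 97.8, 91.5, 93.2 and 101 FPKM in Control. No mTg library came near the lowest Control library, and the log2 fold change was -1.43 ± 0.09 (adjusted p = 5.28e-08, rank 64 from the lowest of all tested genes). In Ex *Myoz3* measured 87.8, 112, 96.3, 94.5 and 86.4 FPKM, overlapping Control, with a log2 fold change over Control of -0.06 ± 0.08 (adjusted p = 0.657, 95% interval -0.23 to 0.11). *Myoz3* was higher in Ex than in mTg by 1.36 ± 0.09 (adjusted p = 8.76e-08).

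*Myoz1*, the most abundant myozenin and likewise known from fast fibers, lies at chr14:20649107-20656540 (minus strand, 6 exons). It measured 1531, 1809, 1758, 1638 and 1869 FPKM in Ex and 1669, 1372, 1850, 1604 and 1475 FPKM in mTg, against 2037, 1998, 2082, 2278 and 2248 FPKM in Control. Both groups lay wholly below Control. The log2 fold change of *Myoz1* was -0.31 ± 0.07 in Ex over Control (adjusted p = 0.0135) and -0.42 ± 0.085 in mTg over Control (adjusted p = 0.00123). In Ex over mTg it was 0.11 ± 0.09 (adjusted p = 0.325, 95% interval -0.08 to 0.31), and 0.18 (adjusted p = 0.0409) after scaling every library to an equal sum.

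The α-actinins moved in opposite directions. *Actn2*, the α-actinin of all sarcomeres, lies at chr13:12269426-12340760 (minus strand, 21 exons) and measured 542, 509, 505, 603 and 479 FPKM in Ex and 549, 432, 414, 421 and 468 FPKM in mTg, against 267, 219, 288, 263 and 331 FPKM in Control. Each Ex and each mTg library was above each Control library. The log2 fold change of *Actn2* was 0.95 ± 0.10 in Ex over Control (adjusted p = 1.5e-04) and 0.74 ± 0.11 in mTg over Control (adjusted p = 9.16e-05). In Ex over mTg it was 0.21 ± 0.09 (adjusted p = 0.0734, 95% interval 0.02 to 0.40), which passed without mTg replicate 1 (0.28, adjusted p = 0.0106) and after scaling every library to an equal sum (0.28, adjusted p = 0.0161).

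*Actn3*, the α-actinin of fast fibers, lies at chr19:4861216-4877909 (minus strand, 21 exons) and was the most abundant of the 10 genes in Ex and Control. It measured 1610, 1377, 1502, 1580 and 1294 FPKM in mTg, against 3629, 3602, 3694, 3708 and 3126 FPKM in Control. The highest mTg library (1610 FPKM) stood far below the lowest Control library (3126 FPKM), and the log2 fold change was -1.27 ± 0.08 (adjusted p = 6e-08, rank 87 from the lowest). In Ex *Actn3* measured 2843, 3106, 2868, 2535 and 2967 FPKM, all below the lowest Control library, with a log2 fold change of -0.31 ± 0.07 (adjusted p = 0.0164). This smaller difference missed the threshold after scaling every library to an equal sum (-0.22, adjusted p = 0.0529). *Actn3* was higher in Ex than in mTg by 0.96 ± 0.08 (adjusted p = 5.7e-07). *Actn2* and *Actn3* have similar coding sequences, and how reads matching both were treated is not stated in those sources.

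**Figure D2:**
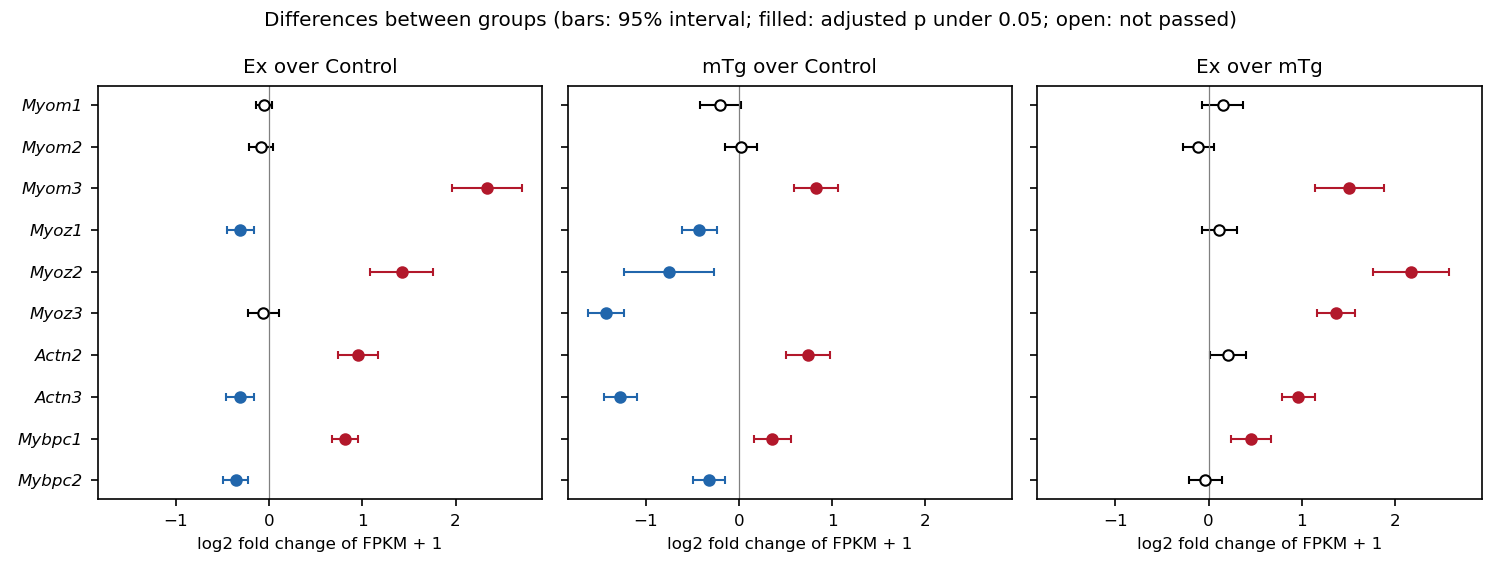
Log2 fold changes of the 10 genes on the log2(FPKM + 1) scale for Ex over Control, mTg over Control and Ex over mTg. Bars are 95% intervals, filled points passed the test (red higher, blue lower) and open points did not. The largest rise is *Myom3* at 2.34 in Ex over Control, and the largest falls are *Myoz3* at -1.43 and *Actn3* at -1.27 in mTg over Control.

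The myosin-binding proteins C showed the same opposite directions in both models. *Mybpc1*, the slow skeletal form, lies at chr10:88518279-88605152 (minus strand, 29 exons) and measured 751, 708, 703, 801 and 638 FPKM in Ex and 628, 512, 458, 456 and 587 FPKM in mTg, against 403, 383, 403, 401 and 453 FPKM in Control. The 3 groups did not overlap, with Ex highest, mTg between and Control lowest. The log2 fold change of *Mybpc1* was 0.81 ± 0.07 in Ex over Control (adjusted p = 2.61e-05), 0.36 ± 0.09 in mTg over Control (adjusted p = 0.0068) and 0.45 ± 0.10 in Ex over mTg (adjusted p = 0.00211). *Mybpc2*, the fast skeletal form, lies at chr7:44501699-44524656 (minus strand, 28 exons) and measured 1274, 1516, 1407, 1357 and 1434 FPKM in Ex and 1663, 1505, 1300, 1406 and 1310 FPKM in mTg, against 1864, 1612, 1803, 1827 and 1840 FPKM in Control. All Ex libraries lay below all Control libraries, whereas mTg replicate 1 lay above Control replicate 2. For *Mybpc2* the log2 fold change was -0.36 ± 0.06 in Ex over Control (adjusted p = 0.00409) and -0.32 ± 0.08 in mTg over Control (adjusted p = 0.00549). Ex and mTg were not separated (-0.04 ± 0.08, adjusted p = 0.755, 95% interval -0.21 to 0.14).

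The order of levels among the 10 genes differed between groups. In Control it was *Actn3* (3552 FPKM), *Myoz1* (2129), *Mybpc2* (1789), *Mybpc1* (408), *Myom2* (398), *Myom1* (315), *Actn2* (274), *Myoz3* (99.4), *Myoz2* (57.4) and *Myom3* (11.0), with overlapping libraries between *Mybpc1* and *Myom2* and between *Myom1* and *Actn2*. In Ex *Actn2* stood above *Myom2*, *Myoz2* stood above *Myoz3*, and *Myom3* overlapped *Myoz3*, the gene next to it. In mTg *Myoz1* (1594 FPKM), *Actn3* (1473) and *Mybpc2* (1437) formed a run in which each overlapped the next, and so did *Mybpc1*, *Actn2* and *Myom2* below them.

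Shares within a family do not depend on how a library was scaled, and they are given as descriptions without a test. *Actn2* held 15.6% ± 2.16 of the summed α-actinin FPKM in Ex and 23.7% ± 2.37 in mTg, against 7.20% ± 1.43 in Control (SD, n = 5 each). The libraries of the 3 groups did not overlap in this share, which lay between 13.9% and 19.2% in Ex, 21.1% and 26.6% in mTg, and 5.74% and 9.58% in Control. The ratio of *Actn3* to *Actn2* was 5.48 ± 0.806 in Ex and 3.25 ± 0.427 in mTg, against 13.3 ± 2.53 in Control. The summed level of both genes was 3392 ± 172 FPKM in Ex and 1929 ± 159 FPKM in mTg, against 3825 ± 216 FPKM in Control, so that the mTg share was taken of a smaller sum.

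For the myosin-binding proteins the order of the models by mean share was the other way round. *Mybpc1* held 34.0% ± 2.95 of the summed FPKM of *Mybpc1* and *Mybpc2* in Ex and 26.9% ± 2.51 in mTg, against 18.6% ± 0.838 in Control. Ex libraries (30.8% to 37.1%) and mTg libraries (24.5% to 30.9%) overlapped in this share. The summed levels were 2118 ± 76.7 FPKM in Ex and 1965 ± 204 FPKM in mTg, against 2198 ± 118 FPKM in Control. *Myom3* held 8.33% ± 2.43 of the summed myomesin FPKM in Ex and 2.98% ± 0.728 in mTg, against 1.53% ± 0.211 in Control, within sums of 741 ± 32.4, 703 ± 92.6 and 724 ± 21.9 FPKM in Ex, mTg and Control. *Myoz2* held 7.77% ± 1.13 of the summed myozenin FPKM in Ex and 2.05% ± 0.525 in mTg, against 2.49% ± 0.477 in Control. *Myoz3* held 4.85% ± 0.480 in Ex and 2.21% ± 0.343 in mTg, against 4.37% ± 0.511 in Control. *Myoz1* made up the rest, 87.4% ± 1.24 in Ex and 95.7% ± 0.541 in mTg, against 93.1% ± 0.546 in Control.

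**Figure D3:**
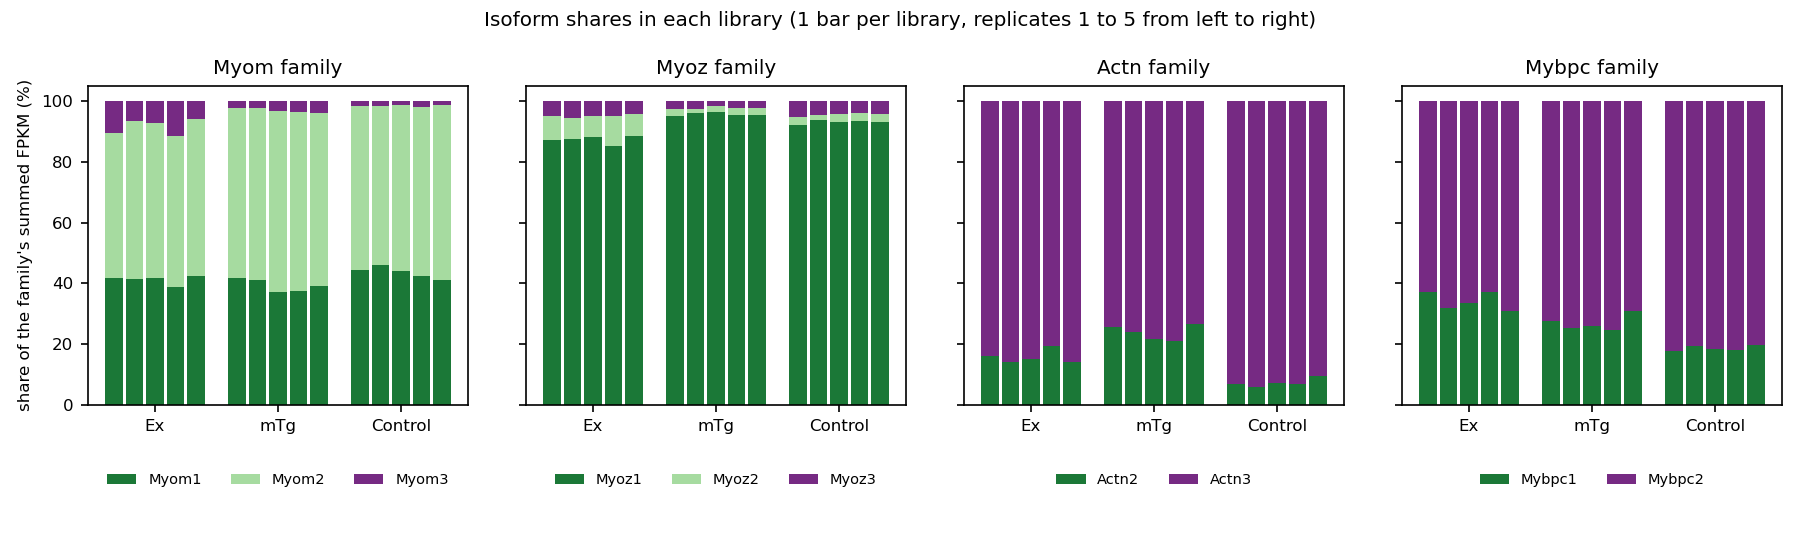
Share of each gene in the summed FPKM of its family in percent, with 1 stacked bar per library (replicates 1 to 5 from left to right in Ex, mTg and Control). The *Actn2* part of the bars averages 15.6% in Ex, 23.7% in mTg and 7.20% in Control, and the *Mybpc1* part 34.0%, 26.9% and 18.6% in the same groups.

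Libraries of 1 group varied together for some pairs of genes. *Actn2* and *Mybpc1* had a Pearson r of 0.92 over the 15 libraries and of 0.84 over deviations from the group means, with 0.96 within Ex, 0.92 within mTg and 0.92 within Control. In each group the library with the most *Actn2* also had the most *Mybpc1* (Ex replicate 4, mTg replicate 1 and Control replicate 5). *Actn3* and *Myoz3* had an r of 0.96 over the 15 libraries but 0.33 over deviations from the group means. *Actn2* and *Actn3* had an r of -0.50 over the 15 libraries, and within groups it was -0.86 in Ex, 0.22 in mTg and -0.65 in Control. *Myom3* and *Actn2* had an r of 0.96 among Ex libraries, -0.08 among mTg libraries and -0.27 among Control libraries. The pairs named here are examples, and others varied together as closely. *Myom2* and *Mybpc2* had an r of 0.84 over deviations, with 0.78 within Ex, 0.98 within mTg and 0.51 within Control. Within mTg, replicate 1 was the highest library for 8 of the 10 genes. The r values rest on 5 libraries within a group and 15 in all, which share their depth and scaling, and carry no test.

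**Figure D4:**
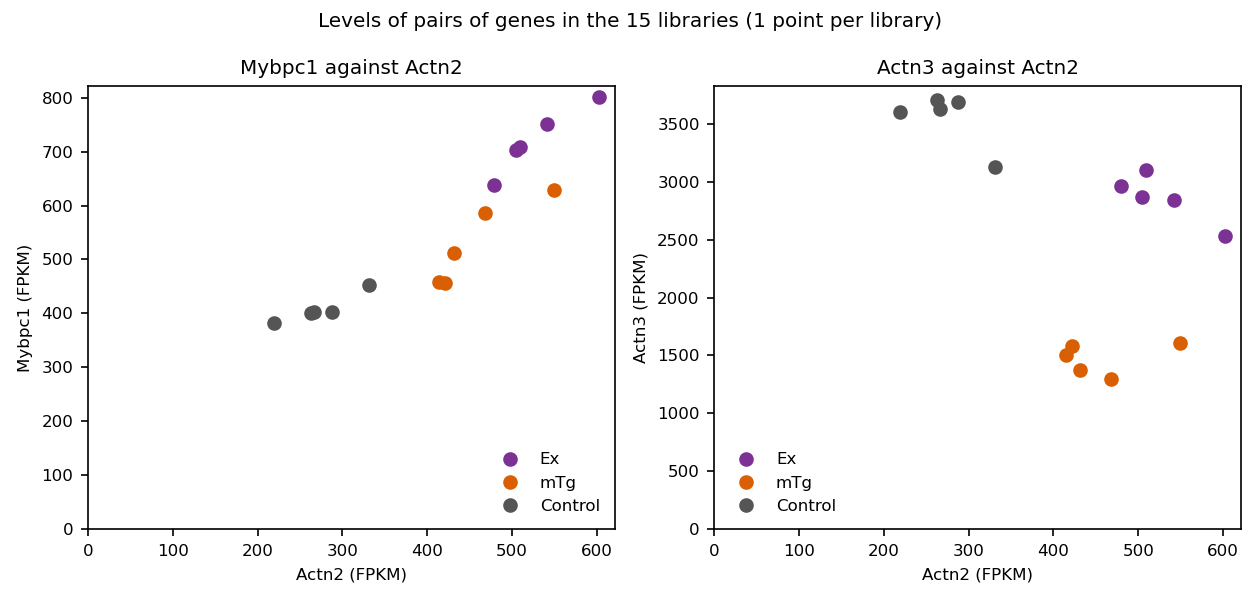
Levels in FPKM (linear axes from 0) of *Mybpc1* against *Actn2* on the left and of *Actn3* against *Actn2* on the right, with 1 point per library colored by group. On the left the libraries of each group run upward together (r of 0.96 in Ex, 0.92 in mTg and 0.92 in Control), and on the right the mTg libraries lie apart at 1294 to 1610 FPKM of *Actn3*.

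The tested genes whose levels ran most closely with each member over the 15 libraries were then listed. *Myom3* ran with *Rab15*, a small GTPase gene (r = 0.98), *Ablim1*, an actin-binding LIM protein gene (0.97), and *Ttc9* (0.96). *Myoz2* ran with *Myl6b*, a slow-muscle myosin light chain gene (0.98), *Atp2a2*, the calcium pump gene of slow muscle and heart (0.96), and *Klhl40*, a kelch protein gene of the sarcomere (0.96). *Actn3* ran with *Cacng1*, a subunit of the muscle calcium channel, *Prkag3*, a subunit of AMP-activated protein kinase, and *Il12a* (0.98 each). *Myoz3* ran with *Ampd1*, the muscle AMP deaminase gene (0.98), *Amotl1* (0.98) and *Acta1*, the skeletal actin gene (0.97). *Actn2* ran with *Wfs1* (0.95), the non-coding RNA *H19* (0.94) and *Acot9* (0.93), and *Mybpc1* ran with *Smtnl1* (0.96), *Bdh1*, a ketone body enzyme gene (0.93), and *Myom3* itself (0.93).

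Of the other members, *Mybpc2* ran with *4933434E20Rik* (0.95), *Vti1a* (0.91) and *Vps4a* (0.90), and *Myoz1* with *BC005624* (0.96), *Mlf2* (0.95) and *Aldoa*, the muscle aldolase gene (0.94). *Myom1* ran with *Pelp1* (0.95), *Ddx42* (0.92) and *Foxj3* (0.92), and *Myom2* with *Rhoa* (0.87), *Ibtk* (0.86) and *Cndp2* (0.85). Over deviations from the group means the r of *Myom1* with *Pelp1* was still 0.92 and that of *Myom2* with *Rhoa* 0.85, whereas that of *Myoz3* with *Ampd1* was 0.32 and that of *Actn3* with *Cacng1* 0.53. For *Mybpc1* the r over deviations was 0.66 with *Smtnl1*, 0.51 with *Bdh1* and 0.35 with *Myom3*.

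Other genes of the Z-disc were set beside the members. Of 28 listed genes 27 were tested. In Ex against Control 7 rose and 2 fell (*Synm* and *Capza2*), beside 5.39% of all tested genes higher and 5.02% lower, with a median log2 fold change of 0.08 (-0.0056 over all tested genes). *Csrp3*, which encodes muscle LIM protein, rose most (2.62 ± 0.33, adjusted p = 7.03e-04), with 260 ± 146 FPKM in Ex and 37.3 ± 10.1 FPKM in Control (SD, n = 5 each). *Lmcd1*, another LIM domain gene (0.64 ± 0.17, adjusted p = 0.0364), and *Cryab*, a small heat shock protein gene (0.62 ± 0.14, adjusted p = 0.0162), rose with overlapping groups. This count of 9 depended on single libraries and on scaling, with 4 genes called without Control replicate 1 and also without Control replicate 4, 5 without Ex replicate 1, without Ex replicate 4 and without Control replicate 2, 3 in a fit on all 15 libraries, and 10, each of them higher, after scaling every library to an equal sum.

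In mTg against Control 4 of the 27 Z-disc genes rose and 13 fell (median -0.11, against -0.0211 over all tested genes), beside 22.3% of all tested genes higher and 23.1% lower. *Pdlim3*, a LIM protein gene whose product binds α-actinin, measured 128 ± 18.8 FPKM in mTg and 304 ± 24.3 FPKM in Control (-1.25 ± 0.10, adjusted p = 3.57e-07). *Pdlim7* (-1.07 ± 0.11, adjusted p = 3.07e-06) and the intermediate filament gene *Synm* (-0.97 ± 0.11, adjusted p = 1.15e-05) also fell, with no overlap between groups. In Ex against mTg 15 were higher and 3 lower (median 0.26, against 0.0155 over all tested genes), beside 20.7% of all tested genes in each direction. The lower count was 1 after scaling every library to an equal sum. It was also 1 when 1 library was left out, be it Ex replicate 1, 2 or 3 or mTg replicate 3 or 5. The genes that differed most were *Csrp3* (2.33 ± 0.37), *Pdlim3* (1.30 ± 0.09) and *Pdlim7* (0.88 ± 0.11), with adjusted p of at most 2.06e-04.

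Of 19 genes on a list made for the M-band and thick filament 17 were tested. The place of their products in the sarcomere was not tested. Some, such as those of *Igfn1* and *Smyd2*, may belong to other structures. In Ex against Control 1 rose and 4 fell, beside 5.39% of all tested genes higher and 5.02% lower. The median log2 fold change of the 17 was -0.07 (-0.0056 over all tested genes). *Fhl2*, a LIM protein gene, measured 1.75 ± 0.412 FPKM in Ex and 0.739 ± 0.166 FPKM in Control (0.65 ± 0.10, adjusted p = 0.00211), while the lysine methyltransferase gene *Smyd2* (-0.59 ± 0.10, adjusted p = 0.00358) and the ubiquitin ligase gene *Trim63* (-0.50 ± 0.09, adjusted p = 0.00485) fell. This count of 5 was 3 when 1 library was left out, be it Ex replicate 1, 2, 3 or 4 or Control replicate 3 or 4. It was 7 (3 higher and 4 lower) after scaling every library to an equal sum. In mTg against Control 1 rose and 7 fell, beside 22.3% of all tested genes higher and 23.1% lower. The median was -0.18 (-0.0211 over all tested genes), and without mTg replicate 1 the numbers were 1 higher and 10 lower. *Igfn1* measured 0.713 ± 0.115 FPKM in mTg and 10.6 ± 7.20 FPKM in Control (-2.58 ± 0.27, adjusted p = 5.82e-06), *Trim63* fell (-1.13 ± 0.07, adjusted p = 6.13e-08), and *Mybph*, a relative of the myosin-binding proteins C, rose (1.06 ± 0.19, adjusted p = 5.69e-04). In Ex against mTg 9 were higher and 2 lower, beside 20.7% of all tested genes in each direction. The median was 0.26 (0.0155 over all tested genes). Here *Igfn1* (2.24 ± 0.22), the titin gene *Ttn* (0.73 ± 0.08) and *Trim63* (0.63 ± 0.09) changed most, with the highest adjusted p of these at 8.95e-05.

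**Figure D5:**
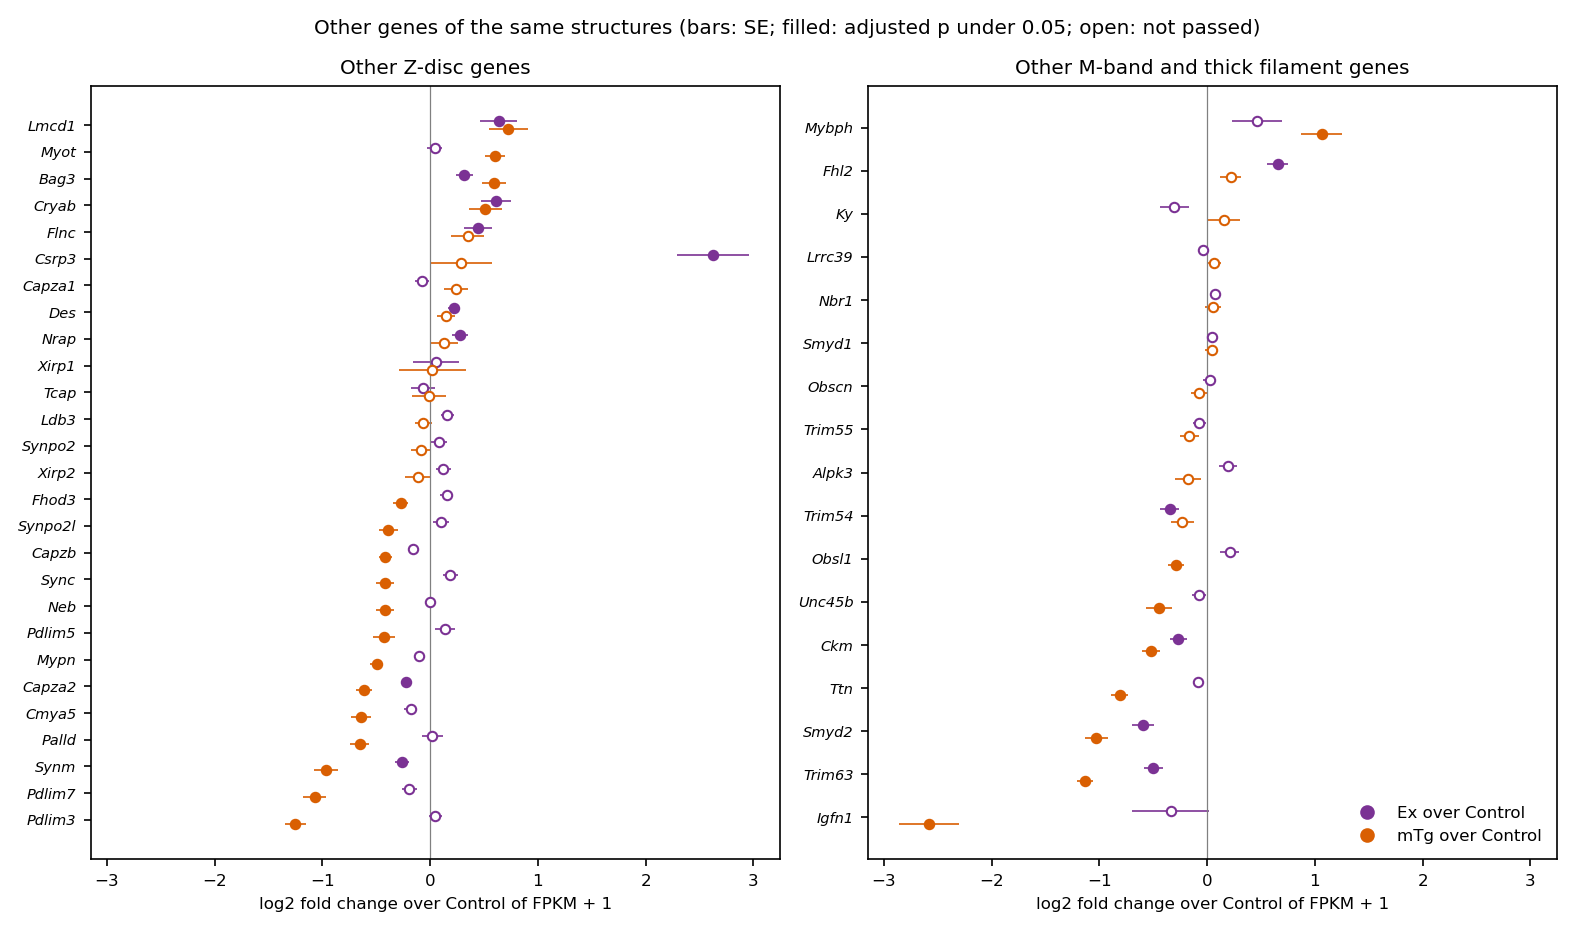
Log2 fold changes over Control on the log2(FPKM + 1) scale for the 27 tested genes of the Z-disc list on the left and the 17 tested genes of the M-band and thick filament list on the right, with Ex in purple and mTg in orange. Bars are SE and filled points passed the test. In mTg 13 Z-disc genes lie on the lower side as filled points, and *Csrp3* in Ex lies farthest to the right at 2.62.

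Some fiber type markers and some markers of other cells differed between the groups as well. Among adult myosin heavy chain genes, *Myh4* of the fastest fibers measured 7252 ± 510 FPKM in Ex and 6146 ± 1237 FPKM in mTg, against 9788 ± 609 FPKM in Control, and *Myh2* of oxidative fast fibers measured 1076 ± 159 FPKM in Ex and 301 ± 97.1 FPKM in mTg, against 294 ± 38.0 FPKM in Control. *Myh1*, of intermediate fast fibers, measured 1353 ± 199 FPKM in Ex and 2554 ± 476 FPKM in mTg, against 714 ± 82.7 FPKM in Control. *Myh7*, the slow form, measured 78.7 ± 18.7 FPKM in Ex and 27.1 ± 17.7 FPKM in mTg, against 35.8 ± 15.2 FPKM in Control. In Ex over Control 3 of these 4 were called higher and *Myh4* lower by limma. In mTg over Control *Myh1* was called higher and *Myh4* lower. There *Myh2* and *Myh7* did not pass (limma adjusted p = 0.956 and 0.357), with overlapping groups. The summed FPKM of 8 muscle fiber markers was 66636 to 73191 in Ex and 55205 to 66442 in mTg, against 72440 to 80694 in Control. These 8 did not all go the same way, with 2 called higher and 3 lower in Ex, and 1 higher and 5 lower in mTg. That of 6 endothelial markers was 129 to 159 in Ex and 142 to 199 in mTg, against 97.5 to 122 in Control, with 4 of the 6 called higher in Ex and 5 of the 6 in mTg. The 3 markers of satellite cells in the table summed to 9.53 to 10.3 FPKM in Ex and 3.90 to 5.52 FPKM in mTg, against 9.22 to 11.3 FPKM in Control. Most of this sum was *Cdh15*, at 4.17 FPKM in mTg and 8.61 FPKM in Control, with *Pax7* at 0.394 and 0.721 FPKM. Of these markers 2 were tested, and 2 were called lower in mTg and 0 in Ex against Control. Of all tested genes 22.3% were called higher and 23.1% lower in mTg, and 5.39% and 5.02% in Ex. Of markers of other cells, 2 of 5 for macrophages were called higher in mTg, 3 of 6 for smooth muscle and pericytes were higher in mTg, with 1 higher and 2 lower in Ex, and 3 of 4 for Schwann cells were lower in mTg. Fibroblast markers had 2 higher and 1 lower of 6 in mTg, and adipocyte markers did not pass in either comparison. No macrophage, fibroblast or Schwann cell marker was called in Ex against Control. *Alas2*, the erythroid marker in the table, measured 3.16 ± 1.41 FPKM in mTg and 1.45 ± 0.401 FPKM in Control with overlapping groups (0.71 ± 0.20, adjusted p = 0.0115). Each of these markers in the table was above 0 in at least 1 library. The part of these mixtures in the results on the 10 genes was not tested.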

How the data were processed

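Group and replicate number were taken from labels. In the study's methods, stranded poly(A) libraries were sequenced as single-end reads and aligned to mm10 with STAR. The submitters' notes name DESeq2 version 1.1.0. Annotation, counting tool, strand setting and the handling of multi-mapping reads are not given in the sources used. The analysis started from FPKM deposited by the authors for 12529 genes, of which 21 carry date-like symbols, which stayed in the fits and are not named. The authors' deposited tables of their own comparisons (log2 fold changes, standard errors, test statistics, p-values and mean counts) were not used. The FPKM gave whole reads for 12529 of 12529 genes (tolerance 0.01 reads), which supplied the depths. Libraries of a group differed beyond counting noise in every pair (chi-square of 4.59 to 27.3 per gene).

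Genes averaging 0.5 FPKM or more over 15 libraries were tested on log2(FPKM + 1), which understates changes of low genes, with limma 3.58.1 in R 4.3.3 (trend, two-sided). Each comparison was fitted on its own 10 libraries, with Benjamini-Hochberg adjustment and a threshold of 0.05. The script was tested on simulated data. The labels do not state that each library is a separate animal, so p-values cover only the spread among these samples, which may be partly technical.

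Alternatives were a pseudocount of 0.1, no filter, rescaling to the same sum (TPM), median of ratios, 1 fit on all 15 libraries, limma voom on recovered reads, the replicate number as a block, and each library left out. Named genes were the members, the 3 called genes of each list with the largest change per comparison, the 3 genes of highest Pearson r with each member, the adult myosin heavy chain genes and *Ppargc1a*. *Capza2*, *Alas2*, *Cdh15* and *Pax7* were named after their values were seen. Members and lists were chosen with earlier results of these data known. Locations are from GENCODE M21 and promoters from RefSeq (GRCm38.p6). Motif counts of *Myom1* and *Mybpc2* refer to sequences not printed.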

Additional observations from a re-analysis of the deposited data

Results flagged for a closer look

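In 4 of the 30 sets of 5 libraries (10 genes in 3 groups), the highest or lowest library stood apart by a gap of more than 0.71 of the whole range of its group, where chance gives about 1 in 20. *Myom1* in Ex replicate 2 had the highest value at 318.9 FPKM, against 298.9 to 304.0 FPKM in the other Ex libraries. *Myoz2* in mTg replicate 2 had the lowest value at 17.3 FPKM, against 35.6 to 40.6 FPKM in the other mTg libraries. *Actn3* in Control replicate 5 had the lowest value at 3126 FPKM, against 3602 to 3708 FPKM in the other Control libraries. *Mybpc2* in Control replicate 2 had the lowest value at 1612 FPKM, against 1803 to 1864 FPKM in the other Control libraries.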

How the results depend on the processing

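Over the 510 repeats of the members' fold changes under the alternatives, 496 kept their direction and their side of the threshold. The number of members called lay between 6 and 7 in Ex against Control, 8 and 9 in mTg against Control, and 5 and 7 in Ex against mTg. After rescaling to the same sum (TPM), differences that had not passed turned sign, to 0.046 for *Myom1*, 0.0074 for *Myom2* and 0.033 for *Myoz3* in Ex over Control, and 0.033 for *Mybpc2* in Ex over mTg. The same rescaling put 85.5% of all calls on the higher side in Ex against Control, where the deposited scale had 51.8%, and 61.5% in Ex against mTg, where it had 50.0%, with a median over all tested genes of 0.08 in both. Leaving out 1 library gave -0.041 to 0.053 for *Myom2* in mTg over Control and -0.071 to 0.018 for *Mybpc2* in Ex over mTg. The cause of these changes was not tested. Same-numbered libraries shared only a number, with r of their deviations between -0.08 and 0.19 for Ex and Control, -0.22 and 0.15 for mTg and Control, and -0.19 and 0.04 for Ex and mTg, and 1, 1 and 0 of the 5 numbers correlating best with their own. With the replicate number as a block, 6 members were called in Ex against Control (*Actn3* kept its log2 fold change of -0.31 with an adjusted p of 0.0574), 8 in mTg against Control and 5 in Ex against mTg, and 4 Z-disc genes in place of 9 were called in Ex against Control. Without mTg replicate 1, 18 Z-disc genes in place of 17 were called in mTg against Control and 17 in place of 18 in Ex against mTg. The Z-disc count in Ex against Control was 3 in the fit on all 15 libraries and 4 to 12 with 1 library left out. The count of 5 genes on the M-band and thick filament list was 3 to 5 with 1 library left out. Counted as reads without scaling for length, 15 of 30 family shares moved by more than 1 SD, and the *Myoz3* share of the myozenins was 11.9% in Ex and 5.61% in mTg, against 10.7% in Control. Among the 10 genes, depth limits the values of *Myoz2* and *Myom3* most, with 272 and 831 reads in their lowest libraries.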
